A study of Homo sapiens with 18 samples.

Results

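The quantity described here is a difference between 2 effects in the same lung cancer cell line, HCC827, an EGFR-mutant lung adenocarcinoma line. The first effect is that of the growth factor TGFB1, taken as TGFB1-treated cells minus parental cells. The second is that of the transcription factor SNAIL, taken as cells with lentiviral SNAIL-V5 minus cells with a lentiviral lacZ control, both in the pLX303 vector. The titles of the SNAIL arrays read pLX303-lacZ SNAIL-V5, and whether those cells also carry lacZ is not stated. The difference is the first effect minus the second, so a positive value means that a gene was raised more, or lowered less, by TGFB1 than in the SNAIL cells. It was computed for 20046 annotated genes from 12 of the 18 arrays of the series, 3 per group. The other 6 arrays were of cells with a short hairpin against CDH1 (shCDH1) and of cells with a non-targeting hairpin (shNT). Their levels do not enter the difference, but they share its normalization and its estimate of spread. TGFB1 was given for 30 days by the sample labels and for 72 hours, at 10 ng/mL, by the text on the series as a whole, so the length of treatment is not settled. The parental cells carried no vector, and the lacZ and SNAIL cells did. Nothing in the labels says that the 3 arrays of a group came from separate cultures, so the p-values measure the spread between these arrays, which may be technical. A further label numbers the arrays of each group 1, 1 and 2, so the first and second may share a source. With those averaged, 5028 genes were called in the difference of effects and 735 had opposite effects, against 5873 and 944 with 3 arrays per group.

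Epithelial to mesenchymal transition is the switch by which epithelial cells give up their lateral junctions and keratin network and take on the cytoskeleton and matrix of mesenchymal cells. TGFB1 binds a pair of receptor kinases that phosphorylate SMAD2 and SMAD3, and these act with SMAD4 on target genes that include feedback inhibitors, matrix genes and transition factors. SNAIL, the product of SNAI1, is a zinc-finger repressor that binds E-box sequences such as CAGGTG and is best known for silencing CDH1. The comparison asks where the 2 routes move the same cells in different ways.

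Several facts of the arrays bear on what follows. On the log2 scale used throughout, the array-wide median level was 6.82, and a gene near or below it was at the dim end of the scale. All 12 arrays correlated best with another array of their own group, with r of 0.994 to 0.996 within groups and 0.916 to 0.984 between groups. The SNAI1 probe, which should report on the transferred gene, read 6.33, 6.69 and 6.48 on the TGFB1 arrays and 6.03, 6.18 and 6.33 on the parental arrays. It read 6.04, 6.15 and 6.28 on the SNAIL arrays, against 6.29, 6.10 and 6.49 on the lacZ arrays. All 12 values lay below the array-wide median, and the SNAIL effect on SNAI1 was -0.14 (adjusted p = 0.528 by limma). The array therefore gives no check of the SNAIL label, and whether this probe can read the vector's transcript was not tested. The cells are called SNAIL-labelled from here on, and every direction drawn from them rests on that label.

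The labelled cell type was checked with 8 markers of lung adenocarcinoma epithelium. In TGFB1-treated cells 7 of 8 were at least 2 log2 units above the array-wide median, the exception being the aspartic protease gene NAPSA at 6.81, and in parental cells all 8 were. In SNAIL-labelled cells 3 of 8 were, with EPCAM, KRT19, CDH1, NKX2-1 and NAPSA between 6.55 and 7.85, and in lacZ cells all 8 were. Of the markers of other cell types, at most 1 of 13 haematopoietic, none of 10 endothelial and at most 2 of 7 neuroendocrine genes lay at least 2 log2 units above the array-wide median in any group. The mean level of 13 haematopoietic markers was 7.22 to 7.30 on TGFB1 arrays, 7.14 to 7.22 on parental arrays, 7.15 to 7.25 on SNAIL arrays and 6.99 to 7.12 on lacZ arrays. For 10 endothelial markers these ranges were 6.59 to 6.65 on TGFB1 arrays, 6.36 to 6.46 on parental arrays, 6.38 to 6.59 on SNAIL arrays and 6.43 to 6.45 on lacZ arrays. For 7 neuroendocrine markers they were 7.78 to 7.99 on TGFB1 arrays, 7.44 to 7.54 on parental arrays, 7.25 to 7.28 on SNAIL arrays and 7.39 to 7.59 on lacZ arrays. Above the array-wide median were 7 haematopoietic markers in TGFB1-treated and 3 in parental cells, against 4 in SNAIL-labelled and 3 in lacZ cells. FCER1G, an Fc receptor chain gene, rose by 1.36 under TGFB1 (adjusted p = 2.87e-08), the endothelial adhesion gene PECAM1 by 0.75 (adjusted p = 0.000205) and ESAM, another endothelial adhesion gene, by 0.61 (adjusted p = 0.00531), to levels of 7.44 for FCER1G, 7.44 for PECAM1 and 7.11 for ESAM. The neuroendocrine marker DLL3, a Notch ligand, averaged 10.12 in TGFB1-treated and 8.74 in parental cells, against 9.06 in SNAIL-labelled and 8.75 in lacZ cells. ENO2, which is also a glycolytic gene, averaged 11.81 in TGFB1-treated and 11.13 in parental cells, against 8.76 in SNAIL-labelled and 10.86 in lacZ cells. The part of these genes in the differences below was not tested.

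Promoter sequences are shown for 5 genes whose values are given below, since they carry the motifs that SNAIL and the interferon-activated factors are known to bind. Each runs from 250 bases before to 50 bases after the gene's start in RefSeq's annotation of GRCh38.p14, 300 bases in all, and is read 5′ to 3′ on the gene's own strand. Capitals mark the E-box CAGGTG or its complement in the first 3, which lost most of their signal in SNAIL-labelled cells. Capitals mark the core of the interferon-stimulated response element (TTTC, any 2 bases, TTTC) or its complement in the last 2, which moved in opposite directions under the 2 conditions. The positions are chr13:46182128-46182427 (minus strand) for LCP1, chr14:37595200-37595499 (minus strand) for FOXA1, chr15:45430360-45430659 (plus strand) for COXFA4L3, chr4:88456869-88457168 (plus strand) for HERC5 and chr11:313790-314089 (plus strand) for IFITM1.
LCP1: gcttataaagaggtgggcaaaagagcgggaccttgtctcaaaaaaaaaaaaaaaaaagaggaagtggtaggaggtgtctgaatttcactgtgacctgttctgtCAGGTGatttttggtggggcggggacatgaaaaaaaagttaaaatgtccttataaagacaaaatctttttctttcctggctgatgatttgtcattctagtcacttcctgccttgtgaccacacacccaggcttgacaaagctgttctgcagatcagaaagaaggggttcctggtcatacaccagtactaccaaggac
FOXA1: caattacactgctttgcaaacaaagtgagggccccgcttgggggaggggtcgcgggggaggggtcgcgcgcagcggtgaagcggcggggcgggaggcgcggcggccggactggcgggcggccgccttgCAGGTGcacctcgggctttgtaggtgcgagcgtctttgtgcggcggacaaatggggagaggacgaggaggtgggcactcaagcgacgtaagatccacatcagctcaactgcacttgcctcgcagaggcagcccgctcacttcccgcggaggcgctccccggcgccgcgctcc
COXFA4L3: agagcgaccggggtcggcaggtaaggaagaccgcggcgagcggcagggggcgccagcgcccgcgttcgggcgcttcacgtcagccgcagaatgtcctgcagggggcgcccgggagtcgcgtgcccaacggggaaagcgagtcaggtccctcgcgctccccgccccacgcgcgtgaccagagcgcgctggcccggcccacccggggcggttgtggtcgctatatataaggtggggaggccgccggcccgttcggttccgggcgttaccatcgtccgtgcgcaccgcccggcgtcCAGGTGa
HERC5: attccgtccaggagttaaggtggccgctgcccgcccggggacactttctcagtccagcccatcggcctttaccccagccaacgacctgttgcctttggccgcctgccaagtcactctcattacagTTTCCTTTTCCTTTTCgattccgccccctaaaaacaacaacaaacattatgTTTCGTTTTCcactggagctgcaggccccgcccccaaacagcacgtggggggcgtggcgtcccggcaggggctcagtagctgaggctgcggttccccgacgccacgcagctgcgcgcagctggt
IFITM1: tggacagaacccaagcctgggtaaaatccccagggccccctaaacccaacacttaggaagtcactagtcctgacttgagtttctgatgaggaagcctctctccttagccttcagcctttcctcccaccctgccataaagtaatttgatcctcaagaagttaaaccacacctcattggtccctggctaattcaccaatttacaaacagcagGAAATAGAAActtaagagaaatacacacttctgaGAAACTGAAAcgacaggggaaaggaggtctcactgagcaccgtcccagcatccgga
The E-box begins 147 bases before the start in LCP1, 122 bases before it in FOXA1 and at base 43 after it in COXFA4L3. HERC5 holds 3 response element cores, 2 of which overlap, and IFITM1 holds 2. Searched on both strands, CAGGTG is present in 20.6% of all 27305 RefSeq promoters of this length and the response element core in 3.6%. The 5 genes were chosen because they hold a motif. CGN, JUP, EHF and CLDN1, which also fell in SNAIL-labelled cells, held no CAGGTG in this window. AXL, FST and ADAM19, which rose there, did hold it. A match describes letters in this window and is neither a bound site nor a cause.

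Across the 20046 genes the difference of effects was called for 5873 (29.3%) at an adjusted p below 0.05, with 2819 positive (14.1%) and 3054 negative (15.2%). The median size among called genes was 0.81 log2 units, and 2143 genes (10.7%) differed by at least 1 log2 unit. For scale, 6245 genes (31.2%) were called in TGFB1-treated against parental cells and 7340 (36.6%) in SNAIL-labelled against lacZ cells. Of all genes 15.5% rose and 15.7% fell under TGFB1, and 19.6% rose and 17.0% fell in SNAIL-labelled cells. Counts over gene lists below are to be read against these shares of all genes, which include the genes at the dim end. They are also to be read against 10 measured reference transcripts, genes often taken as stable. Of these 10, 3 had a positive and 2 a negative difference, and in SNAIL-labelled cells 5 fell and none rose. A list called in a like share is not set apart from them, though 10 genes give only a rough share. Without normalization between arrays the share of positive calls was 27.8%, with the median of all genes at -0.192, against 48.0% and -0.015 with it.

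The 5873 genes fall into 5 kinds. In 2157 (36.7%) the SNAIL effect alone was called, 1248 as a rise and 909 as a fall. In 1341 (22.8%) the TGFB1 effect alone was called, 658 as a rise and 683 as a fall. In 1248 genes (21.2%) both effects were called in one direction but differed in size, the SNAIL effect being the larger in 768 and the TGFB1 effect in 480. In 944 (16.1%) both were called with opposite signs, with 501 higher under TGFB1 and lower in SNAIL-labelled cells and 443 the other way. In the last 183 neither effect was called alone. A further 1662 genes were called in both effects with the same sign while their difference was not called, which does not show that the effects were equal.

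**Figure D1:**
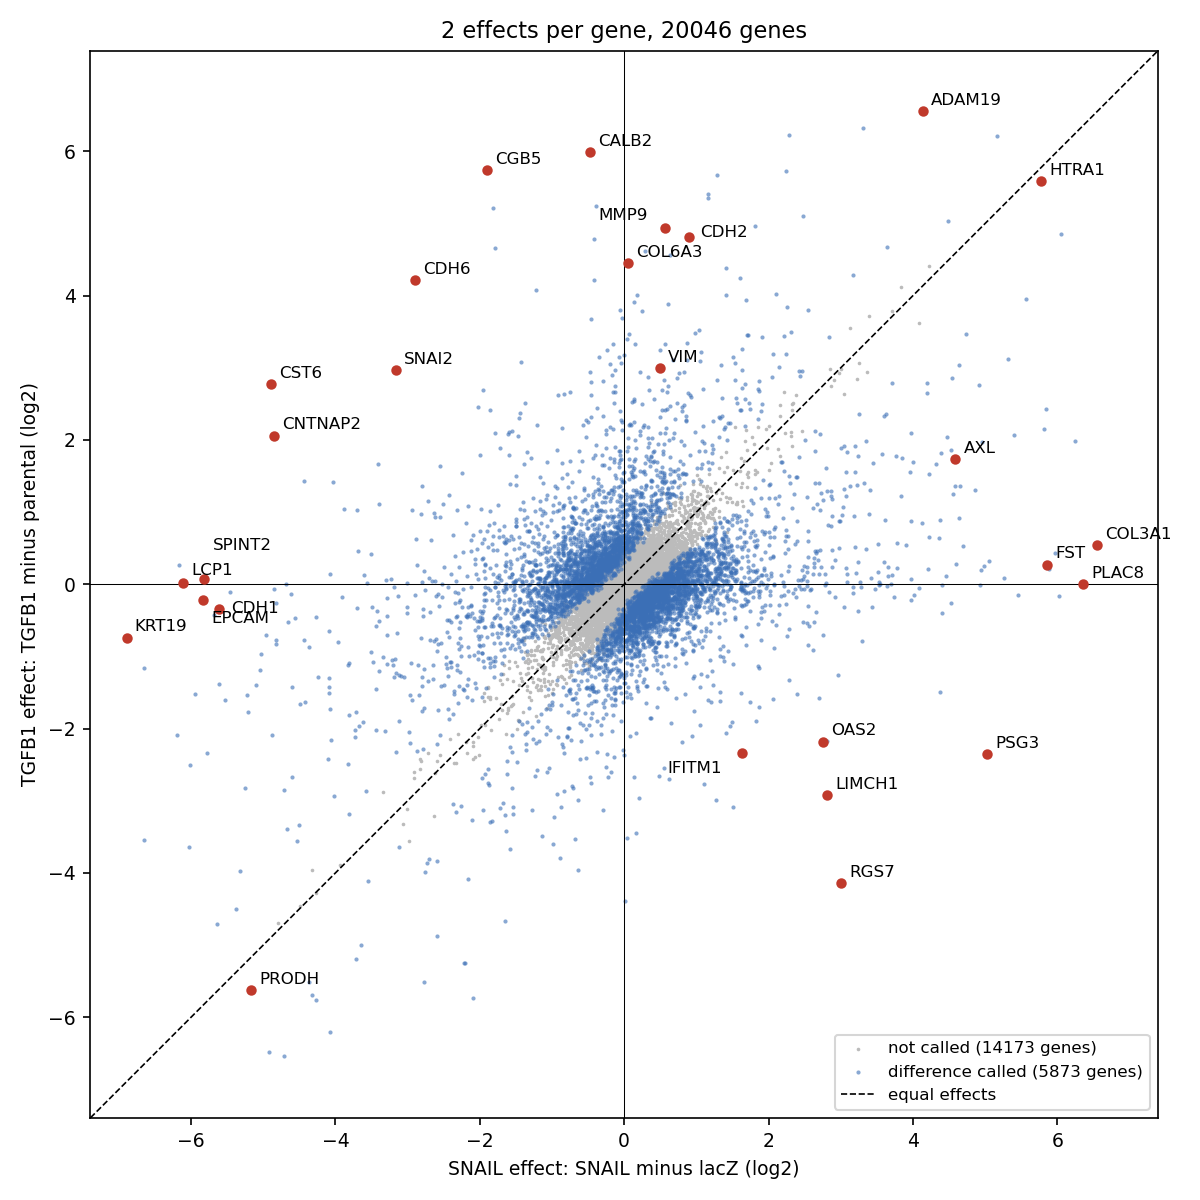
Each of the 20046 genes is a point, with the SNAIL effect (SNAIL-labelled minus lacZ cells, log2) on the horizontal axis and the TGFB1 effect (TGFB1-treated minus parental cells, log2) on the vertical axis. Points on the dashed line have equal effects, blue marks the 5873 genes with a called difference, and red marks genes named in the text. CDH1, EPCAM, KRT19, SPINT2 and LCP1 sit at the far left near a TGFB1 effect of 0, and COL3A1, FST and PLAC8 at the far right.

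Because the 2 effects have different control cells, the difference is the sum of 2 parts that can be read from the levels. One part is the level in TGFB1-treated minus SNAIL-labelled cells, and the other is the level in lacZ minus parental cells. Over all genes the first part was called in 7488 (37.4%), 4072 of them lower (20.3%). It was called with the sign of the difference in 4916 of the 5873 genes (83.7%), with the other sign in 103, and was not called in 854. The part from the control cells was the larger in 1100 genes (18.7%). Between the control cells themselves 2760 genes (13.8%) were called, 1412 higher in lacZ cells (7.04%) and 1348 lower (6.72%). The vector, infection and separate culture are all on one side of that comparison and cannot be told apart.

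Epithelial junction genes were lost far more in SNAIL-labelled cells than under TGFB1. CDH1 (probe ILMN_1770940), the E-cadherin that joins epithelial cells, read 12.78, 12.61 and 12.67 on the TGFB1 arrays and 13.04, 13.06 and 13.00 on the parental arrays. It read 7.55, 7.50 and 7.46 on the SNAIL arrays, against 13.15, 13.13 and 13.09 on the lacZ arrays. Both effects put every array of the treated group below every array of its control, but the SNAIL-labelled arrays were near the dim end and the TGFB1 arrays were not. CDH1 was 1.27-fold lower under TGFB1 (adjusted p = 0.0317) and 49.0-fold lower in SNAIL-labelled cells (adjusted p = 7.3e-23). The difference of effects was 5.27 ± 0.17 (SE; adjusted p = 1.99e-18), and almost all of it lay in the TGFB1 minus SNAIL level of 5.18, since the controls differed by 0.09. In RNA of whole cultures a lower level per cell and fewer cells with the transcript cannot be told apart.

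EPCAM, an epithelial adhesion molecule, read 13.36, 13.45 and 13.32 on TGFB1 arrays and 13.70, 13.54 and 13.56 on parental arrays, against 7.95, 7.89 and 7.71 on SNAIL arrays and 13.65, 13.76 and 13.64 on lacZ arrays. Its TGFB1 effect of -0.22 did not pass the test (adjusted p = 0.0517), its SNAIL effect was a fall of 57.0-fold, and the difference was 5.61 ± 0.12 (adjusted p = 7.48e-22). KRT19, a simple-epithelium keratin, read 13.24, 12.96 and 13.17 on TGFB1 arrays and 13.77, 13.84 and 13.97 on parental arrays, against 7.04, 6.89 and 6.97 on SNAIL arrays and 13.89, 13.87 and 13.83 on lacZ arrays. The KRT19 level was thus 1.67-fold lower under TGFB1 and 119-fold lower in SNAIL-labelled cells, with a difference of 6.16 ± 0.12 (adjusted p = 2.39e-22). For both genes the control cells differed by less than 0.1 log2 units and their arrays overlapped.

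SPINT2, an inhibitor of membrane serine proteases, read 13.02, 12.92 and 12.89 on TGFB1 arrays and 12.96, 12.77 and 12.89 on parental arrays, against 7.09, 6.85 and 7.09 on SNAIL arrays and 12.84, 12.75 and 12.89 on lacZ arrays. The other groups lay at one level while the SNAIL arrays stood apart, and the difference was 5.89 ± 0.13 (adjusted p = 7.48e-22). LCP1, the actin-bundling protein L-plastin, read 13.41, 13.09 and 13.21 on TGFB1 arrays and 13.18, 13.24 and 13.24 on parental arrays, against 6.98, 6.81 and 7.02 on SNAIL arrays and 13.16, 12.92 and 13.07 on lacZ arrays. Its TGFB1 effect was 0.02 (adjusted p = 0.94), and its SNAIL effect was a 69.4-fold fall. MAL2, a protein of apical transport in polarized cells, fell 2.23-fold under TGFB1 and 100-fold in SNAIL-labelled cells, with a difference of 5.49 ± 0.14. COXFA4L3, whose product is related to a subunit of the respiratory chain, rose 1.20-fold under TGFB1 (adjusted p = 0.047) and fell 71.9-fold in SNAIL-labelled cells.

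Over the list of epithelial junction genes, 21 were measured, and the difference was positive in 14 and negative in 2, with a median of 0.99 against -0.02 over all genes. SNAIL-labelled cells had 18 of these 21 lower than lacZ cells and none higher, while TGFB1-treated cells had 14 lower and 3 higher than parental cells. The tight junction plaque protein gene CGN differed by 4.09 ± 0.17 and the plakoglobin gene JUP, which links cadherins to the cytoskeleton, by 3.37 ± 0.20. Other JUP probes, at mean levels of 8.10 and 7.45, gave 1.30 and 0.58. CLDN1, a claudin of the tight junction barrier, was raised by TGFB1, reading 12.17, 11.98 and 12.01 against 10.53, 10.35 and 10.36 in parental cells. In SNAIL-labelled cells CLDN1 read 8.59, 8.66 and 8.48, against 11.16, 11.28 and 10.97 in lacZ cells, so the effects were opposite and the difference was 4.20 ± 0.15 (adjusted p = 9.35e-18). The pair with negative differences, named after their values were seen, were the polarity gene LLGL2 at -0.51, with a TGFB1 minus SNAIL level of 0.02, and the desmosomal plakophilin gene PKP2 at -0.40.

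**Figure D2:**
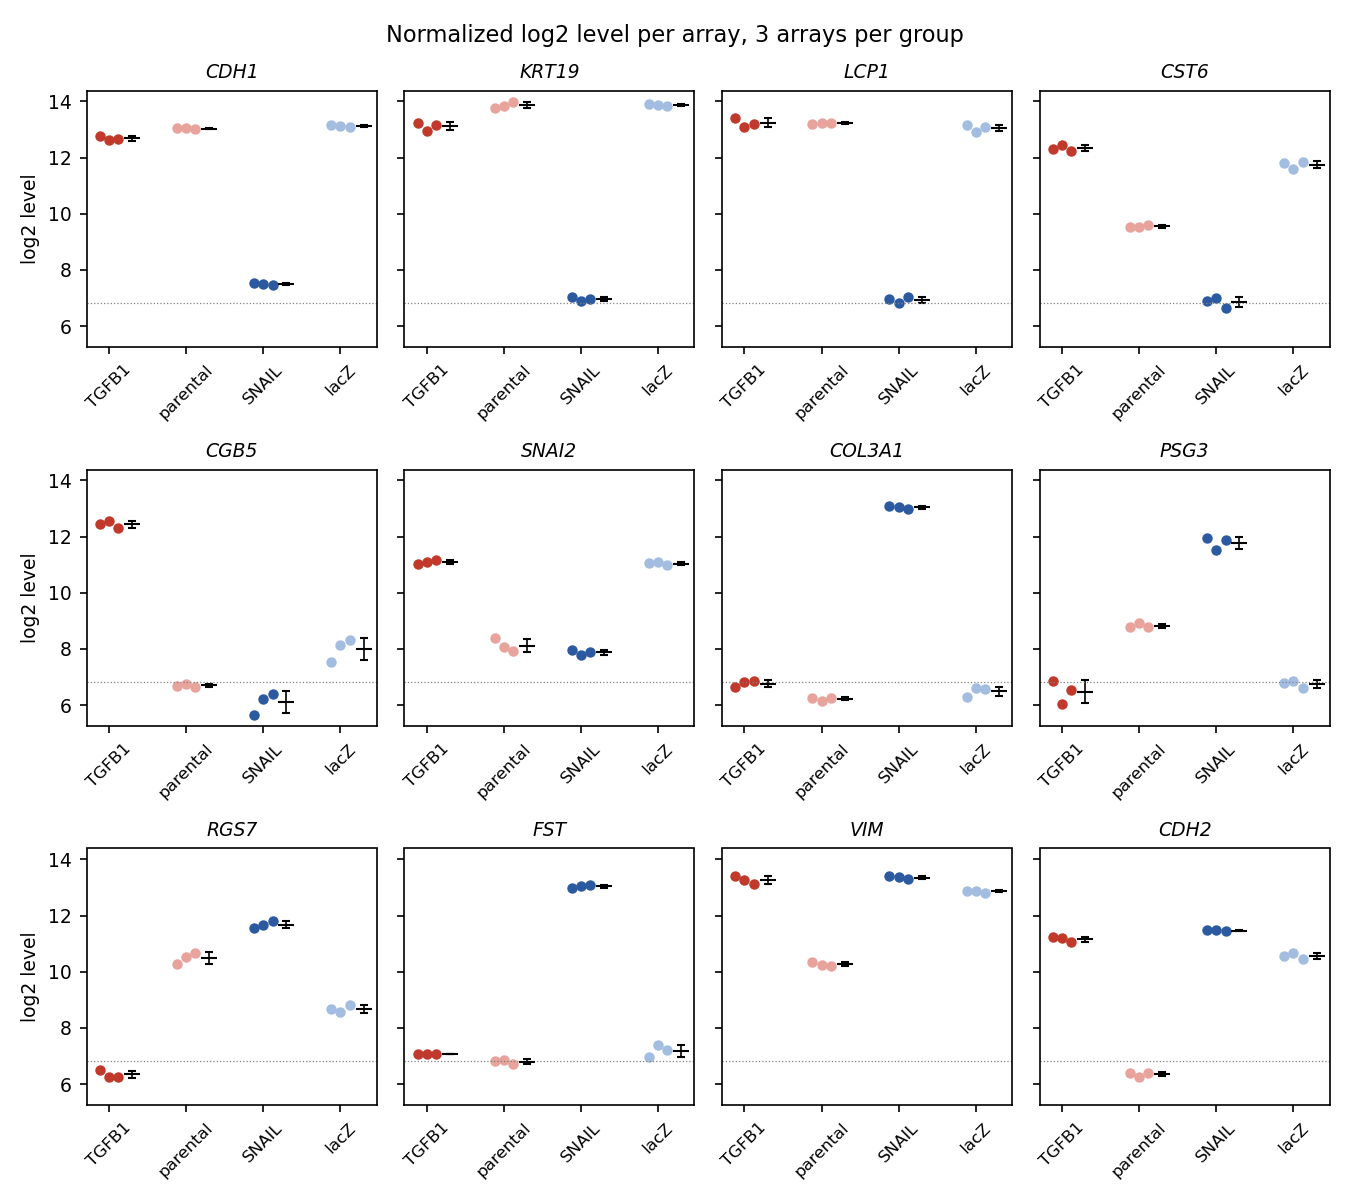
Level of each array (log2, normalized) for selected genes, in the order TGFB1, parental, SNAIL-labelled and lacZ. Points are arrays, black bars are the mean ± SD of 3, and the dotted line is the array-wide median of 6.82. CDH1, KRT19 and LCP1 sit near the dotted line in SNAIL-labelled cells and far above it in the other groups, while VIM and CDH2 are high in TGFB1, SNAIL-labelled and lacZ cells and lower in parental cells.

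Among 29 measured genes of epithelial identity, 17 had a positive and 8 a negative difference, with a median of 1.10. Most of them fell on each route, 21 under TGFB1 and 26 in SNAIL-labelled cells, and the median effect was -1.30 under TGFB1 and -3.11 in SNAIL-labelled cells. The 8 with a negative difference were lowered more by TGFB1, or lowered by it alone. They include the mucin gene MUC1, with a TGFB1 effect of -5.25, a SNAIL effect of -2.22 and a difference of -3.03, and the adhesion genes CEACAM5 at -2.30 and CEACAM6 at -2.13. These 3 were named after their values were seen, and for CEACAM5 the TGFB1 minus SNAIL level was 0.05 and the lacZ minus parental level -2.35. KRT8, a keratin of simple epithelia also named after its values were seen, shows a shared loss: the TGFB1 effect was -1.66, the SNAIL effect -1.70 and the difference 0.04 (adjusted p = 0.908).

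The regulators that hold epithelial identity mostly fell on both routes. Of 16 measured epithelial regulators of transcription and splicing, 11 fell under TGFB1 and 10 in SNAIL-labelled cells, with median effects of -0.67 and -0.83. The difference was positive in 8, negative in 1 and not called in 7. The negative one was KLF5 at -1.03, named after its value was seen. The 4 genes below had the largest differences of the list. FOXA1, a pioneer factor of endodermal epithelia, read 12.01, 11.79 and 11.81 on TGFB1 arrays and 12.53, 12.59 and 12.59 on parental arrays, against 7.00, 6.89 and 6.84 on SNAIL arrays and 12.06, 11.86 and 11.71 on lacZ arrays. Its 1.63-fold fall under TGFB1 set beside a 31.2-fold fall in SNAIL-labelled cells gave a difference of 4.26 ± 0.14 (adjusted p = 2.96e-18). OVOL2, a repressor of mesenchymal factors, fell 2.60-fold under TGFB1 and 48.8-fold in SNAIL-labelled cells. EHF and GRHL2, further epithelial activators, differed by 2.35 ± 0.21 and 2.15 ± 0.22, and in both the SNAIL effect was the larger fall.

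Of 14 measured transition factors 3 were positive and 3 negative, against 14.1% and 15.2% of all genes. The list's median of 0.13 turned to -0.15 with a floor and log2 transformation alone. SNAI2, the SNAIL relative known as SLUG, read 11.02, 11.09 and 11.18 on TGFB1 arrays and 8.38, 8.06 and 7.93 on parental arrays, against 7.95, 7.80 and 7.88 on SNAIL arrays and 11.07, 11.08 and 10.98 on lacZ arrays. TGFB1-treated and lacZ cells thus shared one level, and SNAIL-labelled and parental cells a lower one. The effects were a 7.85-fold rise under TGFB1 and an 8.98-fold fall in SNAIL-labelled cells, and the difference was 6.14 ± 0.19 (adjusted p = 4.35e-19). Of this, 3.22 came from the TGFB1 minus SNAIL level and 2.92 from the control cells.

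ZEB2, a zinc-finger repressor of CDH1, rose on both routes, 5.15-fold under TGFB1 and 9.52-fold in SNAIL-labelled cells, with a difference of -0.89 ± 0.17 (adjusted p = 0.000165). TWIST1, a helix-loop-helix factor, read 5.93, 6.28 and 6.50 on TGFB1 arrays and 6.46, 5.98 and 6.17 on parental arrays, all at the dim end, against 7.84, 7.95 and 8.02 on SNAIL arrays and 6.54, 6.17 and 5.81 on lacZ arrays. Its difference was -1.73 ± 0.26. ZEB1, the paralogue of ZEB2 and chosen after its values were seen, rose by 1.33 under TGFB1 and by 1.32 in SNAIL-labelled cells, and its difference was 0.01 (adjusted p = 0.983).

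VIM and CDH2, the usual mesenchymal markers, differed between the effects mainly through the control cells. VIM, the mesenchymal intermediate filament, read 13.41, 13.25 and 13.12 on TGFB1 arrays and 10.36, 10.23 and 10.22 on parental arrays, against 13.39, 13.38 and 13.29 on SNAIL arrays and 12.87, 12.89 and 12.81 on lacZ arrays. The TGFB1 and SNAIL arrays overlapped, whereas the lacZ arrays all lay above the parental ones. The difference of effects was 2.50 ± 0.16 (adjusted p = 2.23e-12), made of a TGFB1 minus SNAIL level of -0.09 (adjusted p = 0.599) and a lacZ minus parental level of 2.59. CDH2, the N-cadherin of mesenchymal and neural cells, read 11.23, 11.20 and 11.06 on TGFB1 arrays and 6.41, 6.26 and 6.40 on parental arrays, against 11.47, 11.47 and 11.44 on SNAIL arrays and 10.55, 10.68 and 10.45 on lacZ arrays. Its difference was 3.90 ± 0.14, with a TGFB1 minus SNAIL level of -0.30 (adjusted p = 0.0218) and a lacZ minus parental level of 4.20. The lacZ cells, which carry no SNAIL vector, were thus high in both VIM and CDH2.

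The wider list of mesenchymal cytoskeleton and adhesion genes was split, with 12 of 29 positive, 10 negative and a median of 0.10. In 15 of the 29 the lacZ level was called above the parental level, as in 7.04% of all genes. CDH11, a mesenchymal cadherin, read 5.90, 6.68 and 6.28 on TGFB1 arrays and 6.39, 5.98 and 5.78 on parental arrays, against 9.90, 10.03 and 9.86 on SNAIL arrays and 6.25, 6.17 and 6.40 on lacZ arrays. That is a 12.6-fold rise in SNAIL-labelled cells and a difference of -3.42 ± 0.23 (adjusted p = 4.64e-12). AXL, a receptor kinase linked to resistance to EGFR inhibitors, read 8.98, 9.15 and 8.80 on TGFB1 arrays and 7.26, 7.37 and 7.11 on parental arrays, against 12.83, 12.77 and 12.42 on SNAIL arrays and 7.80, 8.11 and 8.35 on lacZ arrays. Both routes raised AXL, 3.32-fold under TGFB1 and 24.0-fold in SNAIL-labelled cells, and the difference was -2.85 ± 0.20 (adjusted p = 8.64e-12). GLIPR1, a secreted-domain protein gene, differed the other way, by 2.64 ± 0.20, having risen 19.0-fold under TGFB1 and 3.05-fold in SNAIL-labelled cells.

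Collagen genes differed in both directions. COL3A1, a fibrillar collagen, read 6.63, 6.84 and 6.85 on TGFB1 arrays and 6.27, 6.16 and 6.26 on parental arrays, against 13.10, 13.04 and 12.98 on SNAIL arrays and 6.29, 6.61 and 6.58 on lacZ arrays. It was at the dim end in 3 groups and among the brightest genes in SNAIL-labelled cells, where it was 93.6-fold higher, and the difference was -6.01 ± 0.17 (adjusted p = 1.47e-19). COL6A3, a chain of the beaded-filament collagen VI, showed the reverse, reading 11.04, 10.88 and 10.64 on TGFB1 arrays and 6.30, 6.56 and 6.33 on parental arrays, against 7.05, 6.69 and 6.62 on SNAIL arrays and 6.68, 6.52 and 6.99 on lacZ arrays. The TGFB1 arrays stood alone, 21.9-fold above parental, and the difference was 4.40 ± 0.20 (adjusted p = 1.19e-15).

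COL4A1, a basement membrane collagen, differed by 3.36 ± 0.16 with a 10.5-fold rise under TGFB1 and a SNAIL effect of 0.03 (adjusted p = 0.868). COL12A1, which decorates collagen fibrils, differed by -4.00 ± 0.18 with an 18.5-fold rise in SNAIL-labelled cells. A second COL12A1 probe at a mean level of 7.15 did not repeat this (-0.23, adjusted p = 0.458). Of 18 measured collagens 8 were positive and 5 negative, against 14.1% and 15.2% of all genes. Their median of 0.31 turned to -0.04 with a floor and log2 transformation alone. Under TGFB1 13 rose, against 15.5% of all genes. In SNAIL-labelled cells 12 rose, against 19.6% of all genes, and 2 others fell.

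Other matrix genes divided in the same manner, with 10 of 30 glycoprotein and proteoglycan genes positive and 12 negative. SPARC, a collagen-binding matrix protein, read 8.57, 8.64 and 8.71 on TGFB1 arrays and 6.69, 6.80 and 6.46 on parental arrays, against 12.71, 12.66 and 12.55 on SNAIL arrays and 6.46, 6.20 and 6.54 on lacZ arrays. Both effects were rises, 3.97-fold under TGFB1 and 75.8-fold in SNAIL-labelled cells, and the difference was -4.26 ± 0.17 (adjusted p = 1.34e-16). LAMB3, a chain of the epithelial laminin-332, rose 2.92-fold under TGFB1 and fell 4.74-fold in SNAIL-labelled cells, a difference of 3.79 ± 0.18. Other LAMB3 probes, at mean levels of 6.51 and 6.20, were not called. LOX, a collagen crosslinking enzyme, rose 8.30-fold under TGFB1, while its SNAIL effect of -0.19 did not pass the test. SPP1, osteopontin, read 6.79, 6.88 and 6.59 on TGFB1 arrays and 8.75, 8.77 and 9.02 on parental arrays, against 6.86, 6.87 and 6.74 on SNAIL arrays and 13.16, 12.79 and 13.13 on lacZ arrays. Its difference of 4.11 ± 0.22 came from the control cells, with a lacZ minus parental level of 4.18 and a TGFB1 minus SNAIL level of -0.07 (adjusted p = 0.793).

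Of 20 matrix proteases and inhibitors 8 were positive and 3 negative, with a median of 0.33, which was -0.02 with a floor and log2 transformation alone. In all 55.0% were called, against 29.3% of all genes. MMP9, a gelatinase, read 11.95, 11.71 and 11.67 on TGFB1 arrays and 6.87, 6.60 and 7.05 on parental arrays, against 7.50, 7.41 and 7.43 on SNAIL arrays and 6.89, 6.96 and 6.79 on lacZ arrays. This was a 30.6-fold rise under TGFB1 against a 1.48-fold rise in SNAIL-labelled cells, a difference of 4.37 ± 0.18 (adjusted p = 1.5e-16). ADAM19, a membrane metalloprotease, had the larger of 2 large rises under TGFB1, 94.5-fold against 17.6-fold in SNAIL-labelled cells, with a difference of 2.43 ± 0.21. Another ADAM19 probe, at a mean level of 6.13, was not called. PLAT, tissue plasminogen activator, differed by -2.17 ± 0.18, with a 5.86-fold rise in SNAIL-labelled cells.

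SMAD target genes stood mostly on the TGFB1 side. Of 25 measured targets and feedback genes, 15 were positive and 4 negative, with a median difference of 0.78, a median TGFB1 effect of 0.66 and a median SNAIL effect of -0.37. TGFB1 raised 15 of the 25, and SNAIL-labelled cells had 12 lower than lacZ cells and 7 higher. PMEPA1, which restrains SMAD signalling as feedback, read 12.99, 13.01 and 12.73 on TGFB1 arrays and 9.47, 9.09 and 9.12 on parental arrays, against 9.19, 8.93 and 9.03 on SNAIL arrays and 9.33, 9.70 and 9.49 on lacZ arrays. It rose 12.8-fold under TGFB1 and was 1.38-fold lower in SNAIL-labelled cells, with a difference of 4.14 ± 0.19 (adjusted p = 2.48e-15).

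IL11, a cytokine of the IL-6 family, read 12.59, 12.60 and 12.55 on TGFB1 arrays and 7.10, 6.81 and 6.82 on parental arrays, against 9.10, 8.96 and 9.49 on SNAIL arrays and 7.71, 7.99 and 7.99 on lacZ arrays. It rose on both routes, 50.8-fold under TGFB1 and 2.44-fold in SNAIL-labelled cells. ANGPTL4, a secreted inhibitor of lipoprotein lipase, rose 8.45-fold under TGFB1 and fell 2.68-fold in SNAIL-labelled cells, a difference of 4.50 ± 0.17. CDKN1A, the cell cycle inhibitor p21, rose 6.98-fold under TGFB1 and was 1.37-fold lower in SNAIL-labelled cells. Its second probe, at a mean level of 6.32, was not called.

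**Figure D3:**
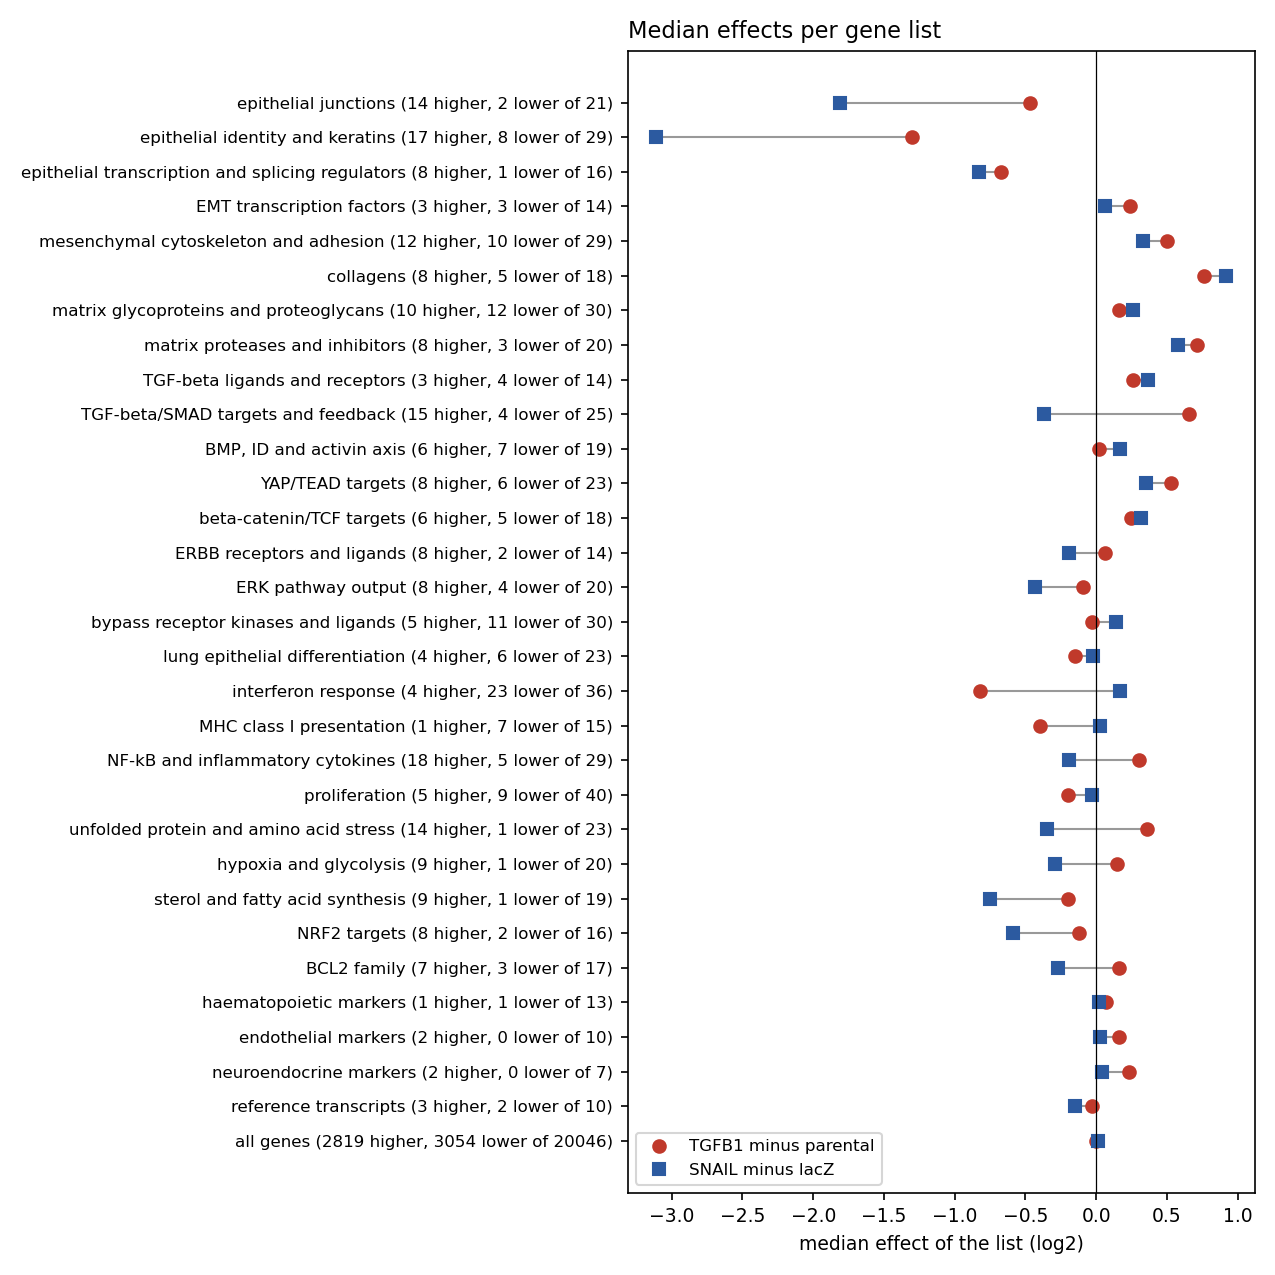
Median effect (log2) of the measured members of each gene list, with red circles for TGFB1 minus parental and blue squares for SNAIL minus lacZ, and all 20046 genes in the last row. The labels count members with a called positive (higher) or negative (lower) difference of effects. The circle lies to the right of the square for epithelial junctions (-0.47 under TGFB1 and -1.81 in SNAIL-labelled cells) and SMAD targets (0.66 and -0.37), and to its left for the interferon response (-0.82 and 0.17).

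Among TGF-beta ligands, receptors and SMADs, 3 of 14 were positive and 4 negative, against 14.1% and 15.2% of all genes. The sign of the list's median of 0.04 changed under many settings. The co-receptor genes were higher in SNAIL-labelled cells: ENG, endoglin, differed by -1.80 ± 0.19 and TGFBR3, betaglycan, by -1.27 ± 0.21. SMAD4 differed by -0.86 ± 0.13, with a TGFB1 effect of -0.32 and a SNAIL effect of 0.53. TGFA, which stood in this list as well as among the ERBB ligands, is a ligand of EGFR and not of the TGF-beta receptors. It read 9.20, 9.17 and 9.67 on TGFB1 arrays and 9.97, 10.23 and 10.14 on parental arrays, against 6.34, 6.02 and 6.46 on SNAIL arrays and 10.92, 11.26 and 11.09 on lacZ arrays. The SNAIL-labelled arrays alone were at the dim end, 28.2-fold below lacZ, and the difference was 4.05 ± 0.22.

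In the BMP and activin list 6 of 19 were positive and 7 negative, 68.4% in all, against 29.3% of all genes. FST, follistatin, which traps activins, read 7.08, 7.08 and 7.06 on TGFB1 arrays and 6.83, 6.87 and 6.71 on parental arrays, against 12.99, 13.04 and 13.08 on SNAIL arrays and 6.95, 7.39 and 7.23 on lacZ arrays. Its relative FSTL3, which binds the same ligands, moved the other way, reading 10.10, 10.29 and 10.01 on TGFB1 arrays and 7.34, 7.28 and 7.32 on parental arrays, against 8.90, 8.60 and 8.77 on SNAIL arrays and 8.99, 9.12 and 9.04 on lacZ arrays. SNAIL-labelled cells thus stood apart for FST, at a difference of -5.58 ± 0.17, and TGFB1-treated cells were the highest for FSTL3, at 3.11 ± 0.16. INHBB, an activin subunit, fell 3.60-fold under TGFB1, and the receptor BMPR1B differed by 2.02 ± 0.16 with opposite effects.

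For the receptors and ligands around EGFR, the driver of this cell line, 8 of 14 were positive and 2 negative, with a median of 0.70. ERBB3, the kinase-impaired partner of EGFR, read 9.58, 9.73 and 9.76 on TGFB1 arrays and 11.78, 11.77 and 11.78 on parental arrays, against 6.53, 6.72 and 6.27 on SNAIL arrays and 11.37, 11.26 and 11.55 on lacZ arrays. It fell on both routes, 4.25-fold under TGFB1 and 29.6-fold in SNAIL-labelled cells, and the difference was 2.80 ± 0.16 (adjusted p = 2.39e-13). The other ERBB3 probes, at mean levels of 7.50 and 6.40, were not called (-0.07 and 0.04). LRIG1, which promotes the turnover of ERBB receptors, differed by -2.18 ± 0.17. NRG1, a ligand of ERBB3, differed by 1.83 ± 0.17, but another of its probes, ILMN_1747867 at a mean level of 6.32, was called with the opposite sign (-0.59, adjusted p = 0.00917).

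Of 30 receptor kinases and ligands that can stand in for EGFR, 11 were negative and 5 positive, against 15.2% and 14.1% of all genes, and the median was -0.06. The TGFB1 minus SNAIL level was called higher for 7 and lower for 9. PDGFRB, a platelet-derived growth factor receptor, read 6.98, 6.96 and 7.08 on TGFB1 arrays and 6.61, 6.24 and 6.25 on parental arrays, against 10.70, 10.72 and 10.71 on SNAIL arrays and 6.47, 6.17 and 6.39 on lacZ arrays. The SNAIL arrays stood apart, 20.6-fold above lacZ, and the difference was -3.72 ± 0.16. KIT, the stem cell factor receptor, read 6.72, 6.89 and 6.92 on TGFB1 arrays and 8.17, 8.04 and 8.08 on parental arrays, against 9.73, 9.62 and 9.72 on SNAIL arrays and 6.75, 6.83 and 6.57 on lacZ arrays. Its effects were opposite, with a 2.38-fold fall under TGFB1 and a 7.83-fold rise in SNAIL-labelled cells. FGF2, a fibroblast growth factor, also had opposite effects, rising 6.15-fold under TGFB1 and falling 1.90-fold in SNAIL-labelled cells, with a difference of 3.54 ± 0.15.

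Feedback genes of the ERK pathway were positive in 8 of 20 and negative in 4, 60.0% in all, against 29.3% of all genes. SPRED2, a RAS pathway inhibitor, had a difference of 2.34 ± 0.24 and IER3, an early response gene, one of 1.77 ± 0.16, both with opposite effects. SPRY1, a Sprouty inhibitor, differed by -1.50 ± 0.17 because it fell 5.03-fold under TGFB1 and 1.78-fold in SNAIL-labelled cells. Among beta-catenin targets 6 of 18 were positive and 5 negative, 61.1% in all. AXIN2, a negative feedback gene of Wnt signalling, was at the dim end in TGFB1-treated, parental and lacZ cells and 6.62-fold higher in SNAIL-labelled cells than in lacZ cells. DKK3, a secreted relative of Wnt inhibitors, differed by -3.28 ± 0.16, and NKD2, a Wnt feedback gene, by 3.76 ± 0.21. Of 23 YAP/TEAD targets 8 were positive and 6 negative, 60.9% in all. Beside AXL, the largest was FOXF2, a forkhead factor, at -2.69 ± 0.15.

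Inflammatory mediators were higher on the TGFB1 side, with 18 of 29 positive, 5 negative and a median of 0.81. CXCL5, a neutrophil chemokine, read 12.92, 12.94 and 12.66 on TGFB1 arrays and 11.32, 11.51 and 11.45 on parental arrays, against 7.27, 7.54 and 7.48 on SNAIL arrays and 11.33, 11.48 and 11.58 on lacZ arrays. The controls overlapped, TGFB1 was 2.66-fold above them and SNAIL-labelled cells 16.4-fold below, and the difference was 5.45 ± 0.16 (adjusted p = 2.4e-19). CXCL2, a related chemokine, differed by 3.61 ± 0.15, also with opposite effects. IL6 read 12.95, 12.90 and 12.96 on TGFB1 arrays and 8.31, 8.53 and 8.29 on parental arrays, against 10.36, 10.33 and 10.08 on SNAIL arrays and 9.60, 9.59 and 9.67 on lacZ arrays. IL6 rose 23.6-fold under TGFB1 and 1.55-fold in SNAIL-labelled cells. CCL5, a chemokine for T cells, was the largest exception, at 8.76, 8.34 and 8.23 on TGFB1 arrays and 8.16, 8.27 and 8.40 on parental arrays, against 11.17, 11.43 and 11.12 on SNAIL arrays and 7.71, 7.64 and 7.83 on lacZ arrays. Its difference was -3.35 ± 0.18 (adjusted p = 5.54e-14).

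The interferon response was the list with the most negative calls of the 30 lists, 23 of 36 against 4 positive, and a median of -0.78. TGFB1-treated cells had 29 of the 36 genes below parental, and SNAIL-labelled cells had 18 above lacZ and 10 below. OAS2, an RNA-sensing synthetase, read 10.11, 9.36 and 9.22 on TGFB1 arrays and 11.79, 11.65 and 11.79 on parental arrays, against 10.05, 10.30 and 10.23 on SNAIL arrays and 7.80, 7.21 and 7.32 on lacZ arrays. HERC5, the ligase that attaches the ISG15 modifier and whose promoter is shown above, read 10.15, 9.90 and 9.83 on TGFB1 arrays and 11.69, 11.37 and 11.59 on parental arrays, against 11.75, 11.77 and 11.54 on SNAIL arrays and 9.73, 9.57 and 9.55 on lacZ arrays. In both genes the parental arrays lay above all lacZ arrays, and the difference was -4.93 ± 0.26 for OAS2 and -3.66 ± 0.16 for HERC5.

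The control cells moved with this list: 34 of the 36 genes were lower in lacZ than in parental cells and none was higher. Over all genes 6.72% were lower, and the list's median was -1.22. Set directly against SNAIL-labelled cells, TGFB1-treated cells had 19 of the 36 higher and 8 lower, with a median of 0.46, the opposite sign to the difference of effects. IFITM1, a membrane protein that blocks virus entry, read 9.25, 9.04 and 8.64 on TGFB1 arrays and 11.22, 11.23 and 11.47 on parental arrays, against 9.06, 9.14 and 8.81 on SNAIL arrays and 7.72, 7.17 and 7.22 on lacZ arrays. Its difference of -3.97 ± 0.23 was made almost wholly by the controls, at -3.94, and the TGFB1 minus SNAIL level was -0.03 (adjusted p = 0.925). OASL, a relative of OAS2, differed in both parts, with a TGFB1 minus SNAIL level of -2.52 and a lacZ minus parental level of -1.76. IFI27 had the widest control part of the list, at -5.37, with a TGFB1 minus SNAIL level of 3.79.

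**Figure D4:**
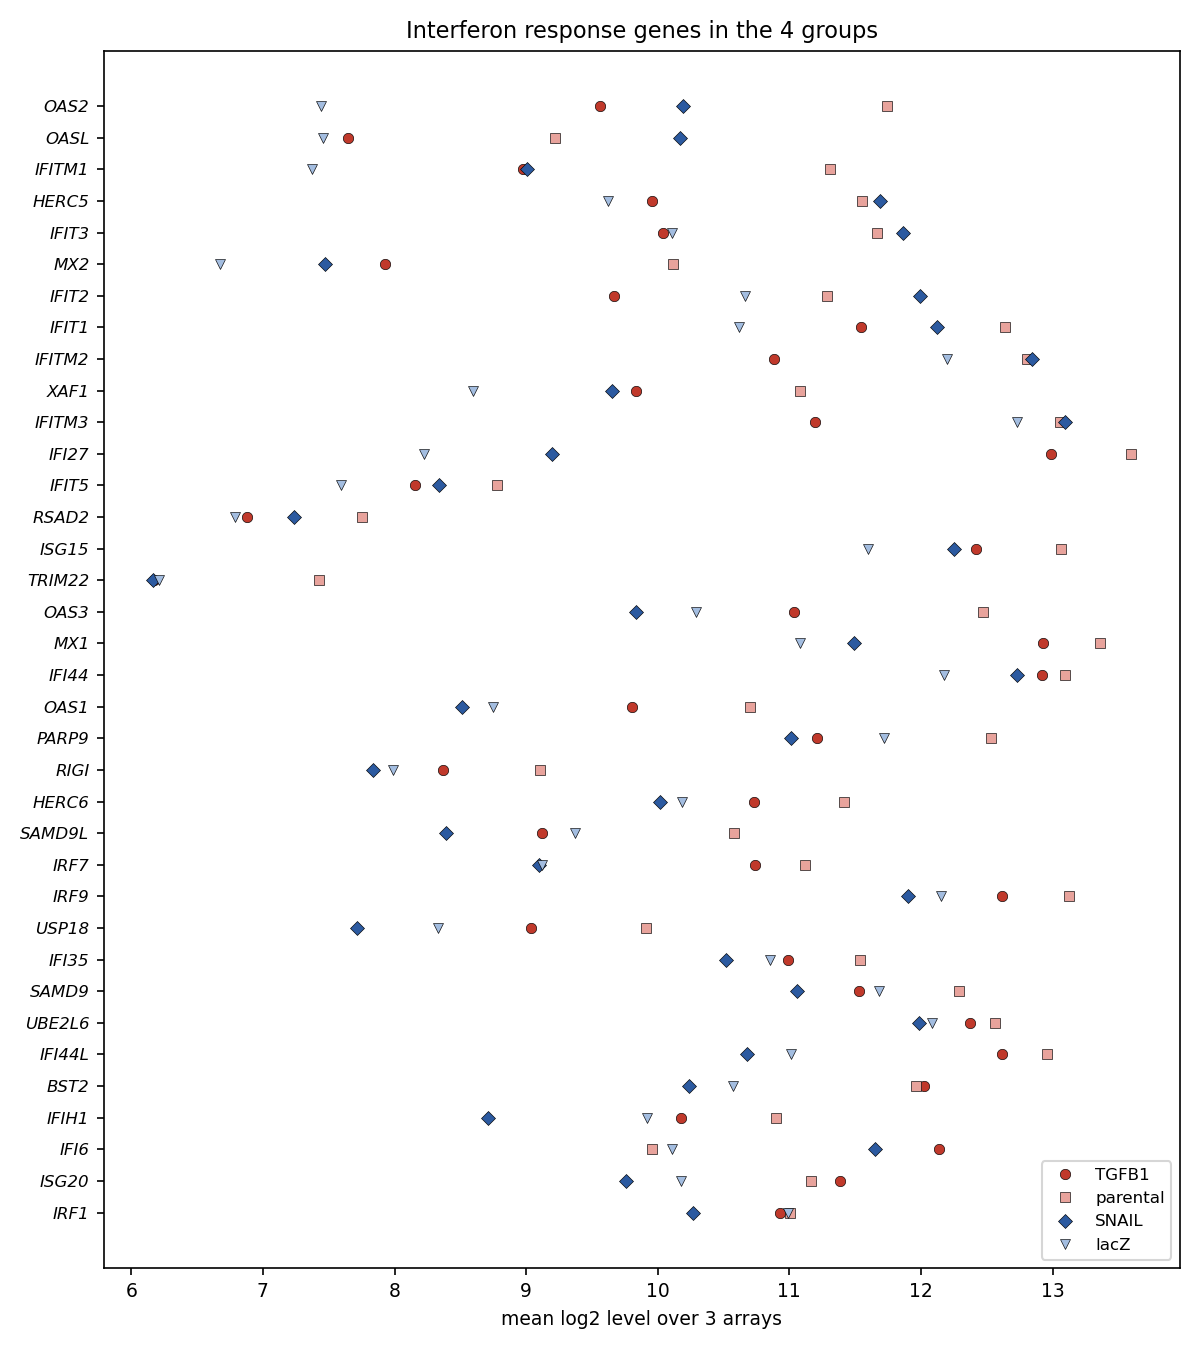
Mean level (log2) of each of the 36 measured interferon response genes in TGFB1, parental, SNAIL-labelled and lacZ cells, with n = 3 arrays per group. Parental cells are above lacZ cells in nearly all genes, including MX2 at 6.67 in lacZ cells and 10.12 in parental cells, whereas IRF1 had a lacZ minus parental level of -0.01.

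Antigen presentation genes of MHC class I showed the same arrangement on a smaller scale, with 7 of 15 negative, 1 positive and a median of -0.33. They were called in 53.3%, against 29.3% of all genes. HLA-B, a peptide-presenting chain, differed by -2.32 ± 0.14, with a TGFB1 effect of -0.99 and a SNAIL effect of 1.33. HLA-F and the peptide transporter gene TAP1 differed by -1.54 ± 0.17 and -1.31 ± 0.15, but their TGFB1 minus SNAIL levels were not called (-0.08, adjusted p = 0.666, for HLA-F and -0.20, adjusted p = 0.149, for TAP1). The list's median TGFB1 minus SNAIL level was 0.07.

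**Figure D5:**
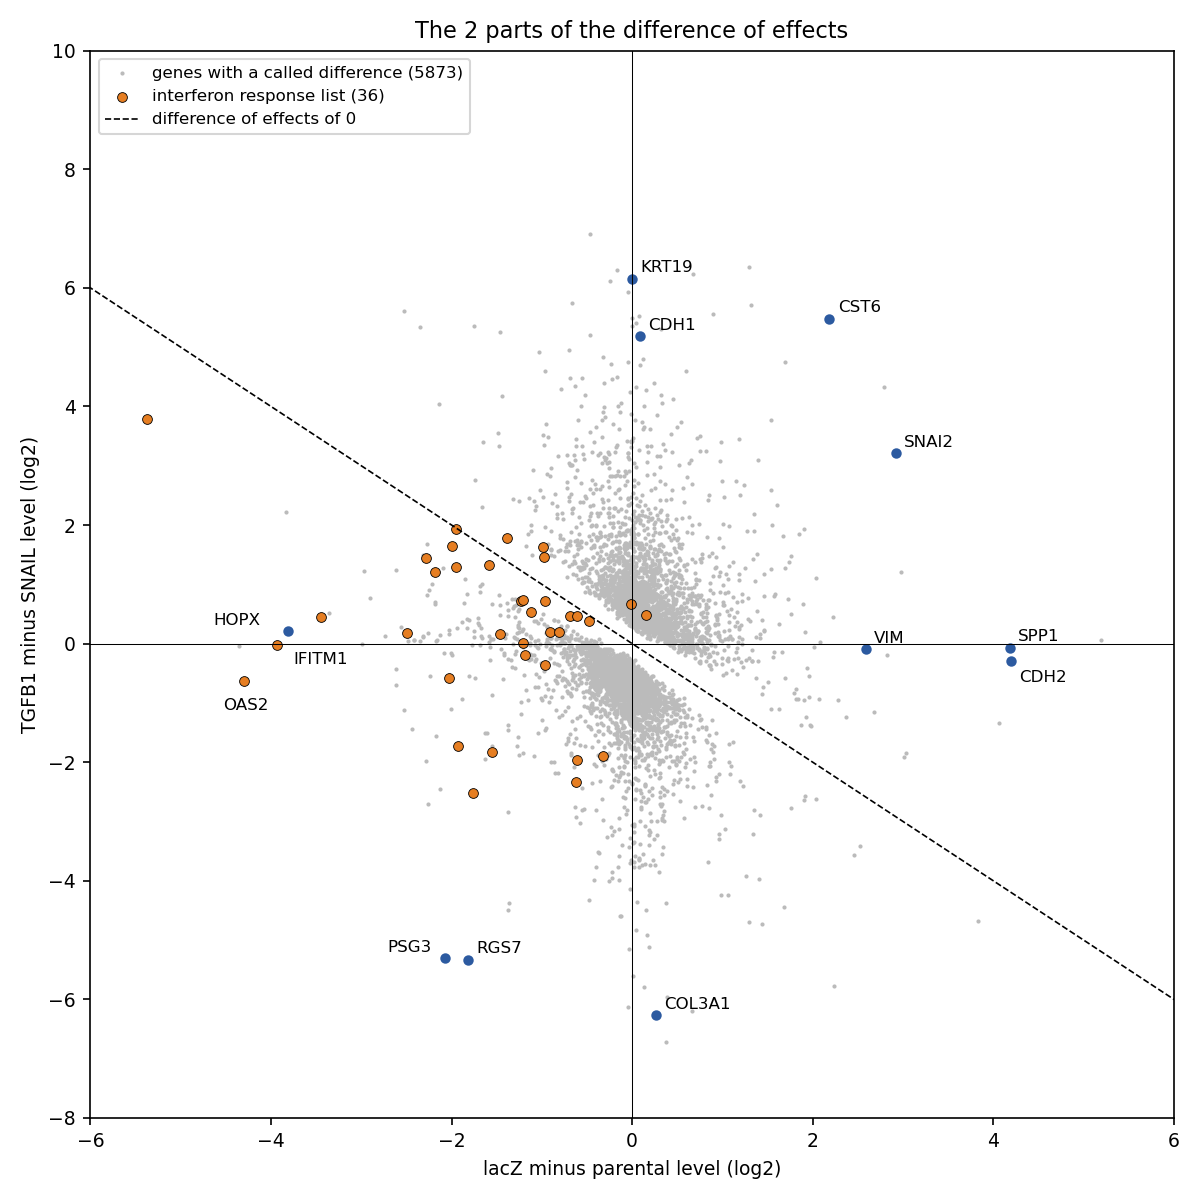
The 2 parts of the difference for each of the 5873 called genes, with the lacZ minus parental level (log2) on the horizontal axis and the TGFB1 minus SNAIL level (log2) on the vertical axis. The dashed line is a difference of 0 and orange marks the 36 interferon genes. CDH1 and KRT19 lie on the vertical axis, while VIM, CDH2 and SPP1 lie far along the horizontal axis.

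The control part was also large in other genes named above or below, whose TGFB1 minus SNAIL level was smaller than the difference but was called with its sign. That level was 4.33 for CDH6, 2.19 for FGF2, 1.48 for LOX, 1.38 for FSTL3, 1.18 for GLIPR1, 1.02 for INSIG1, 0.67 for PHGDH and 0.40 for NRG1. On the negative side it was -1.73 for HERC5, -1.72 for DKK3, -0.98 for INHBB, -0.67 for SPRY1 and -0.59 for HLA-B.

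Of 23 lung differentiation genes 4 were positive and 6 negative, 43.5% in all, against 29.3% of all genes. NKX2-1, the lineage factor of lung adenocarcinoma, read 10.10, 10.18 and 9.95 on TGFB1 arrays and 11.08, 10.87 and 10.59 on parental arrays, against 7.28, 7.22 and 7.17 on SNAIL arrays and 10.03, 9.84 and 9.86 on lacZ arrays. It fell on both routes, 1.70-fold under TGFB1 and 6.44-fold in SNAIL-labelled cells, a difference of 1.92 ± 0.18. ABCA3, a lipid transporter of alveolar type II cells, had opposite effects and a difference of 3.53 ± 0.20. HOPX, an alveolar homeodomain protein gene, and SFTPA1, a surfactant protein gene, were above the dim end in parental cells alone. Their differences, -3.60 ± 0.21 for HOPX and -2.36 ± 0.20 for SFTPA1, came from the control cells, and the TGFB1 minus SNAIL levels were 0.21 (adjusted p = 0.315) for HOPX and 0.06 (adjusted p = 0.821) for SFTPA1. Neither difference was repeated at other probes, all at the dim end. HOPX probes at mean levels of 6.41 and 6.67 gave -0.17 and -0.32, and an SFTPA1 probe at 6.35 gave -0.23, none of them called.

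Amino acid and unfolded protein stress genes were positive in 14 of 23 and negative in 1, with a median of 0.69. That is 65.2% in all, against 29.3% of all genes. ASNS, asparagine synthetase, read 12.88, 12.85 and 12.62 on TGFB1 arrays and 12.16, 12.22 and 12.11 on parental arrays, against 10.40, 10.31 and 10.36 on SNAIL arrays and 12.54, 12.53 and 12.36 on lacZ arrays. The effects were opposite, a 1.54-fold rise under TGFB1 and a 4.34-fold fall in SNAIL-labelled cells. The serine synthesis genes PHGDH and PSAT1 differed by 2.57 ± 0.12 and 2.21 ± 0.17, and TRIB3, a pseudokinase induced by stress, by 2.23 ± 0.14. The single negative member, named after its value was seen, was the chaperone gene PDIA4 at -0.67, where the lacZ minus parental level was -0.80.

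Of 20 hypoxia and glycolysis genes 9 were positive and 1 negative. The exception was the glucose transporter gene SLC2A3, which read 8.86, 8.95 and 8.86 on TGFB1 arrays and 8.37, 8.26 and 8.45 on parental arrays, against 12.69, 12.69 and 12.60 on SNAIL arrays and 8.20, 7.71 and 7.98 on lacZ arrays, a difference of -4.16 ± 0.19. ENO2, a glycolytic enolase, and VEGFA, the vascular growth factor, differed by 2.78 ± 0.15 and 2.29 ± 0.18. Sterol and fatty acid synthesis genes were positive in 9 of 19 and negative in 1, 52.6% in all. INSIG1, which restrains sterol synthesis, and the fatty acid elongase ELOVL6 had SNAIL effects of -1.82 and -1.63 and TGFB1 effects that did not pass the test. NRF2 targets were positive in 8 of 16 and negative in 2, 62.5% in all. The aldo-keto reductase gene AKR1C3 fell 9.85-fold in SNAIL-labelled cells with a TGFB1 effect of 0.06, and its relative AKR1C2 rose 5.01-fold under TGFB1. Other AKR1C2 probes, at mean levels of 6.13 to 6.36, were not called in the difference. The AKR1C genes are close copies, so a probe of one may take signal from another.

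BCL2 family genes were positive in 7 of 17 and negative in 3, 58.8% in all, against 29.3% of all genes. BIK, a pro-apoptotic member, read 11.42, 11.62 and 11.45 on TGFB1 arrays and 10.33, 10.62 and 10.43 on parental arrays, against 6.48, 6.28 and 6.14 on SNAIL arrays and 9.98, 10.05 and 9.98 on lacZ arrays. The 13.0-fold fall in SNAIL-labelled cells beside a 2.05-fold rise under TGFB1 gave a difference of 4.74 ± 0.19 (adjusted p = 1.18e-16). BCL2 itself, the survival member, was 3.24-fold higher in SNAIL-labelled cells and differed by -1.71 ± 0.22. Another BCL2 probe, at a mean level of 7.01, gave -1.20, and those at 6.62 and 6.48 were not called. Of 40 proliferation genes 5 were positive and 9 negative, 35.0% in all, near the 29.3% of all genes. The mitotic genes CCNB1 and KIF20A differed by -0.89 ± 0.14 and -0.82 ± 0.13, and the replication genes RRM2 and MCM4 by 1.04 ± 0.18 and 0.82 ± 0.14. The last 2 were not called without normalization between arrays (adjusted p = 0.14 for RRM2 and 0.243 for MCM4).

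The 12 most negative differences among genes that stayed called with any 1 array left out ran from -7.38 to -5.18. All 12 had a called rise in SNAIL-labelled cells, as did 3927 of all genes (19.6%). PLAC8, a small cysteine-rich protein gene, read 5.98, 6.36 and 6.50 on TGFB1 arrays and 6.37, 6.14 and 6.32 on parental arrays, against 13.01, 12.99 and 13.02 on SNAIL arrays and 6.67, 6.68 and 6.62 on lacZ arrays. CPA3, a carboxypeptidase known from mast cells, read 6.37, 5.88 and 6.09 on TGFB1 arrays and 6.19, 6.33 and 6.30 on parental arrays, against 12.27, 12.26 and 12.23 on SNAIL arrays and 6.20, 6.31 and 6.18 on lacZ arrays. Both were at the dim end in TGFB1-treated, parental and lacZ cells and bright in SNAIL-labelled cells, with rises of 81.7-fold for PLAC8 and 64.9-fold for CPA3. The same held for SRGN, a granule proteoglycan gene that rose 58.9-fold, for DIO2, a thyroid hormone deiodinase gene that rose 62.4-fold, and for TENM3, a teneurin gene that rose 38.4-fold.

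Pregnancy-specific glycoprotein genes were also in this set. PSG3 read 6.85, 6.03 and 6.53 on TGFB1 arrays and 8.78, 8.91 and 8.77 on parental arrays, against 11.94, 11.53 and 11.87 on SNAIL arrays and 6.79, 6.85 and 6.61 on lacZ arrays. PSG9 followed the same order, with a difference of -5.87 ± 0.23, and PSG5 differed by -5.61 ± 0.17 with a TGFB1 effect of -0.15 (adjusted p = 0.419). These genes are near-identical copies, so which of them gave the signal is uncertain. RGS7, a regulator of G-protein signalling, read 6.50, 6.27 and 6.27 on TGFB1 arrays and 10.28, 10.53 and 10.66 on parental arrays, against 11.57, 11.65 and 11.82 on SNAIL arrays and 8.67, 8.55 and 8.80 on lacZ arrays. It fell 17.7-fold under TGFB1 and rose 8.03-fold in SNAIL-labelled cells, a difference of -7.15 ± 0.18 (adjusted p = 1.69e-20). LIMCH1, which activates non-muscle myosin, fell 7.59-fold under TGFB1 and rose 7.02-fold in SNAIL-labelled cells.

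The 12 most positive differences ran from 5.89 to 7.67, and 9 of the 12 had opposite effects, as did 944 (16.1%) of the 5873 called genes. A ranking on the difference of 2 effects favours genes with opposite signs. CST6, a cysteine protease inhibitor, read 12.30, 12.44 and 12.25 on TGFB1 arrays and 9.52, 9.54 and 9.59 on parental arrays, against 6.90, 6.99 and 6.65 on SNAIL arrays and 11.79, 11.59 and 11.83 on lacZ arrays. The 4 groups held 4 separate levels, and of the difference of 7.67 ± 0.21 the control cells gave 2.19. CDH6, a cadherin of kidney and neural cells, read 10.53, 10.52 and 10.43 on TGFB1 arrays and 6.09, 6.45 and 6.29 on parental arrays, against 6.15, 6.29 and 6.06 on SNAIL arrays and 9.19, 9.11 and 8.91 on lacZ arrays. Like SNAI2, CDH6 was high in TGFB1-treated and lacZ cells and at a shared lower level in SNAIL-labelled and parental cells, with a difference of 7.12 ± 0.21 (adjusted p = 1.49e-19). Another CDH6 probe, at a mean level of 6.49, gave 0.74. CNTNAP2, a neurexin-family protein gene, rose 4.18-fold under TGFB1 and fell 28.9-fold in SNAIL-labelled cells, at a difference of 6.91 ± 0.19.

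Some of the 12 were raised by TGFB1 from the dim end. CALB2, the calcium-binding protein calretinin, read 12.68, 12.76 and 12.57 on TGFB1 arrays and 6.56, 6.77 and 6.73 on parental arrays, against 7.20, 7.22 and 6.90 on SNAIL arrays and 7.67, 7.61 and 7.47 on lacZ arrays. It rose 63.3-fold under TGFB1, with a difference of 6.46 ± 0.16 (adjusted p = 7.94e-21). A second CALB2 probe, at a mean level of 8.07, gave a far smaller difference of 0.61 (adjusted p = 0.0211). AFAP1L2, an adaptor of SRC signalling, rose 25.2-fold under TGFB1 and differed by 6.45 ± 0.18. CGB5, a chorionic gonadotropin beta gene, read 12.46, 12.55 and 12.31 on TGFB1 arrays and 6.69, 6.76 and 6.66 on parental arrays, against 5.66, 6.23 and 6.39 on SNAIL arrays and 7.55, 8.13 and 8.31 on lacZ arrays. CGB1 gave a like pattern and a difference of 7.04 ± 0.20, but the CGB genes are near-identical and their probes may read one another.

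The CDH1 hairpin gives a view of the same genes from arrays whose levels enter neither effect. Those arrays do share the normalization and the estimate of spread. In shCDH1 cells CDH1 was lower by 4.40 on the log2 scale than in shNT cells (adjusted p = 1.36e-20), set beside a TGFB1 effect of -0.35 and a SNAIL effect of -5.62. Across all genes 6803 (33.9%) were called in that comparison. Of the 2143 genes with a difference of effects of at least 1 log2 unit, 1422 were called in shCDH1 cells, 624 with the sign of the difference and 798 with the opposite sign, which is the SNAIL side. Among genes with a positive difference 287 were on the TGFB1 side and 506 on the SNAIL side, and among those with a negative difference 337 were on the TGFB1 side and 292 on the SNAIL side. EPCAM fell by 2.78 in shCDH1 cells, while KRT19 had an effect of -0.21 that did not pass the test (adjusted p = 0.0718). VIM rose by 2.90 and CDH2 by 4.65, values set beside TGFB1 effects of 2.99 and 4.81 and SNAIL effects of 0.50 and 0.90. The controls of these effects differ, with VIM at 10.45 in shNT and 12.86 in lacZ cells, and CDH2 at 8.17 and 10.56. The VIM level was 13.35 in shCDH1 and 13.35 in SNAIL-labelled cells, and the CDH2 level 12.82 and 11.46.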

How the data were processed

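Per the labels' protocols, total RNA was amplified to biotin-labelled cRNA for Illumina bead arrays. The deposited table holds linear intensity values of 47323 probes on 18 arrays. Its array medians, 152.1 to 235.8, differ, so it was read as not normalized; scanner, software and any earlier steps by the authors are not given in the sources used here. Detection was not assessed, and 3 arrays per group limit the precision.

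With limma 3.58.1 in R 4.3.3, 2 probes with values of 0 were dropped, background was corrected by normexp (offset 50), and log2 values were quantile normalized over the 18 arrays. The probe annotation gave 30113 probes with 1 symbol, 8 with several and 17202 with none listed. The brightest of a gene's probes stood for it (6691 genes had several). The planned design assumed values already normalized, with a floor and log2 alone, which is given as an alternative. A limma model with a mean for each of the 6 groups, 12 residual degrees of freedom and a moderated variance that follows intensity was fitted to 20046 genes. P-values are two-sided, Benjamini-Hochberg adjusted over all genes and called below 0.05. The fit was tested on simulated data.

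The comparison, its gene lists (30 lists) and the genes named were chosen with earlier results of these data known. Named genes were CDH1, SNAI1, VIM and CDH2, the 12 largest differences each way that stayed called with any array left out, the 6 each way with opposite called effects whose smaller effect was largest, the 6 each way whose TGFB1 minus SNAIL level was also called with the same sign, ranked by the smaller of level and difference, the 5 shared rises and 5 shared falls whose smaller effect was largest, and up to 4 called members of each list. RefSeq promoters were matched for 96 of 137 genes examined in detail. Motif shares over a set were taken as void where under 80% of its genes had a promoter, as for the interferon list (28 of 36), the junction list (15 of 21) and the genes with the largest differences. The SMAD target list had 22 of 25, and CAGGTG was in 2 of these promoters (9.1%), against 19.6% of the promoters of all genes tested.

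The replicate numbers in the titles are not stated to pair arrays across groups, so no block was used for the values reported; a fit with the block was an alternative.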

Additional observations from a re-analysis of the deposited data

Results flagged for a closer look

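The following 12 genes drew attention because both effects were called with opposite signs. All 944 genes with called opposite effects also had a called difference in the limma model, so that call adds no support. Higher under TGFB1 and lower in SNAIL-labelled cells were CST6 (difference 7.67), CDH6 (7.12), CNTNAP2 (6.91), SNAI2 (6.14), the macrophage growth factor receptor gene CSF1R (4.64) and PRRG1 (4.48), a membrane protein gene. Lower under TGFB1 and higher in SNAIL-labelled cells were PSG3 (-7.38), RGS7 (-7.15), LIMCH1 (-5.74), the monocarboxylate transporter gene SLC16A9 (-4.98), OAS2 (-4.93) and ZSWIM5 (-3.73). In all 12 the lacZ minus parental level was called with the sign of the difference, from 0.67 for CNTNAP2 to 2.92 for SNAI2 among the positive genes and from -4.30 for OAS2 to -1.36 for LIMCH1 among the negative ones. That level was called in 13.8% of all genes, and the 12 were ranked on effects that include these same control cells. The TGFB1 minus SNAIL level was called with the sign of the difference too in each of the 12, the nearest to 0 being OAS2 at -0.63 (adjusted p = 0.00674). Over all genes it was called in 37.4%. CSF1R read 10.76, 10.69 and 10.53 on TGFB1 arrays and 8.12, 7.88 and 7.91 on parental arrays, against 7.28, 7.22 and 7.13 on SNAIL arrays and 9.25, 9.32 and 8.91 on lacZ arrays. SLC16A9 read 6.51, 6.32 and 6.17 on TGFB1 arrays and 8.49, 8.45 and 8.57 on parental arrays, against 9.04, 9.06 and 9.02 on SNAIL arrays and 6.36, 6.15 and 6.20 on lacZ arrays.

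Signal was also present outside the named genes. Of 17208 probes without a single symbol, tested apart, 1155 were called in the difference of effects (6.71%), 600 higher and 555 lower, from -4.42 to 7.60.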

How the results depend on the processing

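Of 137 genes examined in detail, 7 changed the sign of the difference, all where the same control cells served both effects, which leaves the TGFB1 minus SNAIL level: VIM (-0.094), CDH2 (-0.297), SPP1 (-0.07), HOPX (0.209), SFTPA1 (0.057), SH3GL3 (-0.911) and PRODH (1.338). That setting called 7488 genes, of which 5019 were shared with the 5873 reported and 103 of these had the other sign. Without normalization between arrays 1093 genes were positive and 441 had opposite effects. With a floor and log2 transformation alone 2985 were called, 780 of them positive, and 304 had opposite effects, and the share of positive calls was 26.1%. Median centring gave 41.0% positive calls. A size of at least 1 log2 unit left 2143 genes, 1127 positive and 1016 negative. Leaving out 1 array at a time gave 5390 to 5664 called genes, 2591 to 2718 positive, 2788 to 2973 negative and 813 to 885 with opposite effects. The cause of these moves was not tested, except that a size threshold and fewer arrays leave less to call. With the 12 arrays normalized and fitted alone 6340 genes were called, 5836 of them among the 5873, and 1101 had opposite effects. With the replicate number as a block 6248 genes were called, 5805 of them among the 5873. Deviations from group means of same-numbered TGFB1 and parental arrays correlated at 0.122, 0.024 and 0.089, and those of SNAIL and lacZ arrays at 0.052, 0.11 and 0.178. Every SNAIL array and every TGFB1 array correlated best with the control array of its own number, as a hint from the data and not from the design.

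With 1 array left out, the calls of ESAM (without parental 3, lacZ 1 or SNAIL 3) and of the reference transcript PPIA were lost. For PPIA this was without parental 1, TGFB1 2, SNAIL 1 or SNAIL 3. The differences went down to 0.551 for ESAM (adjusted p = 0.0726) and -0.607 for PPIA (adjusted p = 0.0875). The difference of WNT5A was called in 10 alternatives. Of the 30 list medians, 10 changed sign with a floor and log2 transformation alone and 6 without normalization between arrays. The interferon and MHC class I medians, at -0.78 and -0.33, were 0.46 and 0.069 with the same control cells for both effects. Levels near the array-wide median of 6.82 lie at the dim end of the scale, where folds are understated, and the brightest levels may be compressed, so folds of the largest changes are limited by both ends. Among 85 other probes of the genes in detail, 52 were called with the same sign, 32 were not called and 1 was called with the opposite sign. A call with the same sign can be far smaller than at the probe reported, as for CALB2 (0.61), CDH6 (0.74), PSG3 (-1.11) and DIO2 (-1.35). Probes not called include ones of DKK3, SPRY1, PSAT1, VEGFA and CGB1, at mean levels of 6.06 to 6.84.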

Other observations

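Some of the largest changes were shared by both routes, with a difference that was not called in the fit reported. HTRA1, a secreted serine protease, read 11.95, 11.99 and 11.74 on TGFB1 arrays and 6.29, 6.33 and 6.30 on parental arrays, against 12.63, 12.66 and 12.36 on SNAIL arrays and 6.75, 6.82 and 6.74 on lacZ arrays. It rose 48.0-fold under TGFB1 and 54.9-fold in SNAIL-labelled cells, and the difference was -0.19 ± 0.20 (adjusted p = 0.543). The TGFB1 minus SNAIL level of HTRA1 was nonetheless called, at -0.657 (adjusted p = 0.000367). GPC4, a cell surface heparan sulfate proteoglycan gene, rose 21.2-fold under TGFB1 and 18.7-fold in SNAIL-labelled cells, and ALPK2, an alpha-kinase gene, 17.4-fold and 14.2-fold in the same order. SH3GL3, an endophilin gene, rose 13.8-fold under TGFB1 and 13.1-fold in SNAIL-labelled cells. WNT5A, a non-canonical Wnt ligand, rose 12.3-fold under TGFB1 and 16.9-fold in SNAIL-labelled cells, with a difference of -0.46 (adjusted p = 0.0557), which was called in 10 alternatives, from -0.375 with a normexp offset of 100 to -0.798 without normalization between arrays.

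Shared falls were as deep. PRODH, the mitochondrial proline dehydrogenase, read 7.37, 7.24 and 7.37 on TGFB1 arrays and 12.92, 12.94 and 13.02 on parental arrays, against 5.93, 6.01 and 6.03 on SNAIL arrays and 11.28, 10.79 and 11.39 on lacZ arrays. Its falls were 49.5-fold under TGFB1 and 35.8-fold in SNAIL-labelled cells, with a difference of -0.47 (adjusted p = 0.089). That difference was called with a normexp offset of 100 (-0.888), with a floor and log2 transformation alone (-1.162) and without lacZ replicate 3 (-0.583). MMP7, the epithelial matrix protease matrilysin, fell 25.8-fold under TGFB1 and 27.7-fold in SNAIL-labelled cells, and the difference was not called at its second probe either (-0.17, adjusted p = 0.579). Its TGFB1 minus SNAIL level was called, at 0.48 (adjusted p = 0.00397). SPINK1, a trypsin inhibitor, fell 22.1-fold under TGFB1 and 22.5-fold in SNAIL-labelled cells. With the mean of lacZ and shNT cells as the control of the SNAIL-labelled cells the difference was called for MMP7 (0.566) and SPINK1 (0.577). CYP26A1, which breaks down retinoic acid, fell 19.5-fold under TGFB1 and 19.3-fold in SNAIL-labelled cells, and RERG, a small GTPase, 15.5-fold and 20.1-fold in the same order. In all of these the treated groups reached the dim end of the scale or near it, where the size of a fall is only a limit of the measurement.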
